A study of Homo sapiens with 18 samples.

Results

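Doxorubicin, an anthracycline that poisons topoisomerase II and breaks DNA, was given at 0.6 µM to GFP-expressing MDA-MB-231 cells, and their RNA after 48 h was compared with that of GFP cells without the drug. MDA-MB-231 is a human breast adenocarcinoma line of mesenchymal type that lacks hormone receptors and carries mutant p53. The comparison was defined by the sample labels and held 2 libraries a side, which are 4 of the 18 libraries of the study. All of these cells carried a pInducer20 vector with a doxycycline-inducible GFP and were selected for neomycin resistance. Both sides were kept in 250 ng/mL doxycycline, which was started 4 h before doxorubicin. The labels name the 2 libraries of a group biological replicates and do not say whether the line was 1 clone or a pool. They do not give the time at which the untreated cells were harvested, or how long those cells had doxycycline. Doxorubicin therefore cannot be told apart from 48 h of further culture or from any longer exposure to doxycycline and GFP. Set beside this comparison were GFP cells after 6 h of doxorubicin and cells with the same vector carrying FLAG-ZMYND8, without the drug and after 48 h. Control cells of the transient transfection experiment, without and with 48 h of doxorubicin, were also set beside it, with 2 libraries in each group. The titles of these controls do not say whether they were transfected.

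The 12 libraries of the inducible system held between 18300628 and 23724398 counts of read pairs in genes. The untreated GFP libraries held 20864386 and 20053500 counts, and the 48 h libraries held 20175357 and 21176172. Replicates of each GFP group differed by more than sampling noise, with a chi-square per degree of freedom of 2.21, 2.48 and 2.19 at 0, 6 and 48 h, so each library was counted on its own. The markers of the line were checked in untreated cells, where VIM averaged 4481 CPM (counts scaled to the size of the library), FN1 1665 CPM, AXL 514 CPM and EGFR 385 CPM. The estrogen receptor gene ESR1 averaged 0.209 CPM and the progesterone receptor gene PGR had 0 counts in both libraries. Among markers that should be low, EPCAM (37.2 CPM) and ERBB3 (5.35 CPM) were not absent.

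Cells that meet DNA damage slow or stop their cycle through checkpoint kinases and, where p53 works, through its target CDKN1A. Genes for DNA replication are driven by E2F factors late in G1, and genes for mitosis are driven later in the cycle through MuvB complexes. DNA in the cytosol can be sensed by cGAS and STING, which turn on interferons and the genes that interferon factors bind. Anthracyclines also evict histones from chromatin. These are established properties and were not tested here.

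Of 18801 genes tested, 12077 differed at 48 h (64.2%), of which 6091 rose (32.4%) and 5986 fell (31.8% of those tested), with calls made by edgeR's quasi-likelihood test at a Benjamini-Hochberg adjusted p of at most 0.05. At least a 2-fold rise was seen in 2644 genes (14.1%) and at least a 2-fold fall in 1559 genes (8.29%). With 2 libraries a side an exact permutation test of a single gene cannot go below p = 0.333, and the p-values of the model measure the spread between these libraries only. The RNA is from bulk cultures, so fewer cells that make an mRNA and less of it per cell cannot be told apart. The split between rises and falls depended on how libraries were scaled. Over all genes, the median log2 fold change was 0.03 under the trimmed mean of M-values (TMM) scaling used throughout and 0.27 when libraries were scaled to total counts, where 2-fold falls went down to 889 and the share of rises among 2-fold calls went from 62.9% to 79.8%. A fall smaller than the distance between these medians therefore becomes a rise under the other scaling. Among genes with at least 10 counts in every library, 983 rose and 1019 fell at least 2-fold.

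The sequences upstream of 3 gene groups are shown first, because most tested members of the interferon, DNA replication and mitosis lists rose and many hold the same short motifs there. They were taken from the RefSeq promoter table of GRCh38.p14, which covers 250 bases before and 50 bases after each start and matched 12572 of the 18801 genes tested. Capitals mark the motif, and motifs were searched on both strands. The interferon-stimulated response element (ISRE), written as GAAA, any 2 bases and GAAA, was present in 25 of 38 promoters of the interferon list (65.8%) and in 3.65% of all 27305 promoters. The 4 genes printed were picked for a large rise and a match before the start. IFI44L (chr1:78620350-78620410, plus strand) and IFI6 (chr1:27672250-27672310, minus strand) had 2 and 3 matches there. OAS3 (chr12:112938437-112938497, plus strand) had 2 and ISG20 (chr15:88638922-88638982, plus strand) had 1, the nearest at 3 and 60 bases from the start.
IFI44L: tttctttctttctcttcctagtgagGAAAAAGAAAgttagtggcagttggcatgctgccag
IFI6: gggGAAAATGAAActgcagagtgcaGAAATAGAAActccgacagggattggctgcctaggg
OAS3: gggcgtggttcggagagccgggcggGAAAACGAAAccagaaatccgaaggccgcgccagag
ISG20: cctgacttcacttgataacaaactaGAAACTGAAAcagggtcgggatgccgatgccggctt

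An E2F motif, TTTCCCGC or TTTGGCGC, was present in 20 of 51 promoters of the DNA replication list (39.2%) and in 2.31% of all promoters. Over genes with an average log2 CPM of at least 1, it was present in 8.46% of 603 promoters of genes that rose at least 2-fold, in 3.8% of all 9984, and in 2.27% of 880 promoters of genes that fell at least 2-fold. Without that limit on level the difference was smaller, at 4.27% of 1688 risen, 3.49% of 12572 tested and 2.32% of 1034 fallen. E2F was not alone, as other motifs differed too within the limit. TATAAA was present in 10.1% of risen, 5.23% of all and 7.27% of fallen, so it was above all genes in both directions. The shares in the same order were 44.1%, 36.6% and 29.5% for CCAAT, and 4.15%, 2.65% and 1.48% for the ISRE. For TTTGAA they were 12.1%, 9.51% and 9.55%. The stretches printed are from E2F2 (chr1:23531241-23531301, minus strand), CDC25A (chr3:48188427-48188487, minus strand), UHRF1 (chr19:4909461-4909521, plus strand, with the motif on the other strand) and E2F1 (chr20:33686371-33686431, minus strand), of which 2 are themselves E2F genes.
E2F2: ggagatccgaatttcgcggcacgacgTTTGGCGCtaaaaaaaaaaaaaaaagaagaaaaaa
CDC25A: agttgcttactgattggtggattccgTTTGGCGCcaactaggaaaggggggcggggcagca
UHRF1: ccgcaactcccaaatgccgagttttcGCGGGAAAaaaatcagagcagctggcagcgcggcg
E2F1: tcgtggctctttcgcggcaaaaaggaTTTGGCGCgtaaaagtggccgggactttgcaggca

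The cell cycle homology region (CHR), TTTGAA, was present in 27 of 39 mitosis promoters (69.2%) and in 15.4% of all promoters. It often stands near a CCAAT box, which 31 of these 39 promoters (79.5%) and 35.7% of all promoters held. The stretches of CDK1 (chr10:60778143-60778203), ESPL1 (chr12:53268241-53268301) and KIF23 (chr15:69414267-69414327), all on the plus strand, are printed because these mitotic genes rose. A match describes these letters only and not the binding of a factor.
CDK1: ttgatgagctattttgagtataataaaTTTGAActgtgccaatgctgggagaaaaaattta
ESPL1: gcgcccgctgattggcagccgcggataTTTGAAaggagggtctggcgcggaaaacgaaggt
KIF23: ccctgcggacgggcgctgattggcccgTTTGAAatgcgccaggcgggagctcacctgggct

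Genes of DNA replication rose almost without exception. Of the 60 members tested, which cover origin licensing, the replisome, nucleotide supply and E2F factors, 57 rose, 0 fell and 3 did not pass, and 40 rose at least 2-fold. Of all genes tested 32.4% rose, and the median log2 fold change was 1.23 for the list and 0.03 for all genes. E2F2, an activating E2F factor, stood at 5.48 and 7.07 CPM untreated and at 59.5 and 59.7 CPM at 48 h, a log2 fold change of 3.25 ± 0.10 (SE, n = 2 libraries a group, edgeR adjusted p = 6.82e-20). MCM10, which activates the replicative helicase, went from 18.9 and 21.4 CPM to 111 and 123 CPM. RRM2, the regulated subunit of ribonucleotide reductase, went from 119 and 115 CPM to 496 and 494 CPM. The libraries of the 2 groups did not overlap for any of these 3 genes. PCNA, the sliding clamp, was one of the 5 genes with the highest CPM per kb of exon to rise at least 2-fold, at 205 and 186 CPM untreated and 512 and 494 CPM at 48 h. CDC6, which loads the helicase, rose by a log2 fold change of 2.15, and UHRF1, which brings the maintenance DNA methyltransferase to new DNA, by 1.66.

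**Figure D1:**
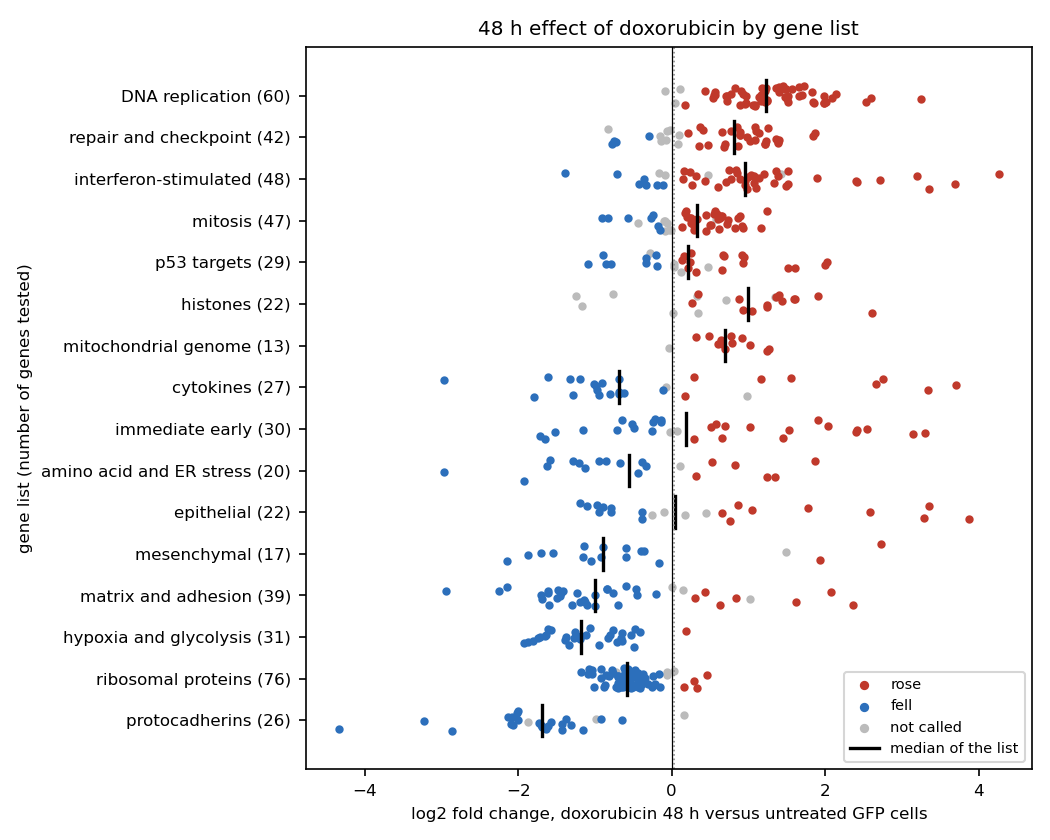
Log2 fold change of each gene tested (points) in 16 gene lists, doxorubicin 48 h against untreated GFP cells, n = 2 libraries a group, with the median of each list as a black bar and the median of all genes, 0.03, as a dotted line; red points rose, blue points fell and grey points were not called at an adjusted p of at most 0.05. DNA replication genes have a median of 1.23, and hypoxia and glycolysis genes a median of -1.18.

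Repair and mitotic genes rose less uniformly. Of 42 repair and checkpoint genes, 30 rose (71.4%, against 32.4% of all genes), 4 fell (9.52%, against 31.8%) and 8 did not pass, with a median log2 fold change of 0.82. BRCA1, which directs homologous recombination, stood at 34.3 and 36.6 CPM untreated and at 127 and 131 CPM at 48 h. The resection nuclease gene EXO1 rose by 1.84, and FANCI, of the crosslink repair pathway, by 1.39. Those that fell included ATM, the kinase that senses double-strand breaks, which went from 135 and 124 CPM to 75.3 and 75.5 CPM, and NBN, its partner in the MRN complex (log2 fold change -0.72). Of 47 mitotic genes, 32 rose (68.1%), 7 fell (14.9%) and 8 did not pass, but only 2 rose at least 2-fold, against 14.1% of all genes. These were FOXM1, the transcription factor of the G2 program, at 116 and 110 CPM untreated and 268 and 271 CPM at 48 h, and AURKB, the kinase of the chromosomal passenger complex, at 62.3 and 54.7 CPM and then 133 and 130 CPM. CDK1, the mitotic kinase, rose by 0.93 and the separase gene ESPL1 by 0.89. PLK1, which drives entry into mitosis, fell from 93.1 and 85.1 CPM to 47.5 and 47.4 CPM. The median of the mitotic list was 0.33, and the number that fell was 3 rather than 7 when libraries were scaled to total counts.

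Known p53 targets did not move as a block. Of 29 tested, 16 rose, 8 fell and 5 did not pass, which are 55.2% and 27.6% of the list beside 32.4% and 31.8% of all genes, and the median log2 fold change was 0.21. CDKN1A, the inhibitor of cyclin-dependent kinases, on chromosome 6 at 36676460 to 36687339 of hg38, had the largest rise of the list. It stood at 114 and 106 CPM untreated, 236 and 231 CPM at 6 h, and 447 and 446 CPM at 48 h, a log2 fold change of 2.02 ± 0.043 (SE, n = 2 libraries a group, edgeR adjusted p = 1.97e-23). The 3 groups of libraries did not overlap. BTG2, an antiproliferative gene, went from 2.38 and 2.58 CPM to 9.68 and 10.2 CPM, and the nuclease gene AEN from 21.7 and 22.8 CPM to 65.1 and 62.1 CPM. FAS, a death receptor whose exons are shared over 21.9% of their length with another gene on the same strand, rose by 1.61. MDM2, which marks p53 for degradation, stood at 56.57 and 57.01 CPM untreated and at 48.7 and 49.9 CPM at 48 h, a difference smaller than the shift between the scalings. The cyclin G gene CCNG1 fell by 1.09 on the log2 scale and BBC3, which encodes the death protein PUMA, fell by 0.85 on that scale. When libraries were scaled to total counts, 4 rather than 8 of the list fell.

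Cyclins and kinase inhibitors were called at rates near those of all genes, of which 32.4% rose and 31.8% fell. Of 9 cyclins and kinase inhibitors, 3 rose (33.3%) and 3 fell (33.3%), and CDKN1A, also a member of the p53 list, was the member that changed at least 2-fold. Of 4 survival members of the BCL2 family, 1 rose (25%) and 2 fell (50%), and BCL2L1, which encodes BCL-XL, fell from 548 and 544 CPM to 367 and 361 CPM. Of 11 death-promoting members, 3 rose (27.3%) and 5 fell (45.5%), with a median of -0.09 that turned to 0.15 when libraries were scaled to total counts. BMF, a BH3-only sensitizer, was the member that fell at least 2-fold, from 56.2 and 60.2 CPM to 18.3 and 16.8 CPM. The topoisomerase genes included the targets of the drug. Of 9 topoisomerases and repair enzymes of their DNA adducts, 4 rose and 4 fell (44.4% each), with a median of -0.07 that turned to 0.18 under total counts. TOP2A, the form of dividing cells and also a member of the mitosis list, stood at 483 and 477 CPM untreated and 841 and 854 CPM at 48 h, while TOP2B, the form of all cells, went the other way from 210 and 215 CPM to 91.1 and 97.1 CPM. The log2 fold changes were 0.82 and -1.18.

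Interferon-stimulated genes were the other large group that rose. Of 48 tested, 37 rose (77.1%, against 32.4% of all genes), 7 fell and 4 did not pass, with a median log2 fold change of 0.96. The largest fold was in IFI44L, a gene of the antiviral response, which had 11 and 8 counts untreated, 5 and 6 at 6 h, and 220 and 222 at 48 h, a log2 fold change of 4.27 ± 0.24 (SE, n = 2 libraries a group, edgeR adjusted p = 7.19e-15). RSAD2, which encodes the antiviral enzyme viperin, went from 1.01 and 0.738 CPM to 11.5 and 11.3 CPM. USP18, which removes ISG15 from proteins and dampens interferon signalling, went from 2.28 and 2.43 CPM to 21.97 and 21.45 CPM. The libraries of all 3 genes were separate between untreated and 48 h, and none of the 3 was called at 6 h. The ubiquitin-like modifier ISG15 went from 129 and 130 CPM to 341 and 313 CPM, and IFI6, an inhibitor of apoptosis, from 26.5 and 27.3 CPM to 181 and 173 CPM. The members with log2 fold changes of 2.42 and 2.40 were OAS1 and OAS3, which make the messenger that activates RNase L, and that of MX1, a GTPase that traps viral nucleocapsids, was 1.39. GBP2, a guanylate-binding protein, went the other way, from 91.0 and 95.6 CPM to 35.2 and 36.2 CPM.

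Among sensors, adaptors and interferon genes, 13 of 18 passed the filter on low counts. Of these, 8 rose (61.5%, against 32.4% of all genes) and 5 fell (38.5%, against 31.8%). CGAS, which senses DNA in the cytosol, stood at 56.1 and 59.0 CPM untreated, 130 and 131 CPM at 6 h and 137 and 135 CPM at 48 h. STING1, its partner, stood at 74.5 and 80.7 CPM untreated, 64.8 and 59.6 CPM at 6 h and 144 and 142 CPM at 48 h. CGAS was thus at its 48 h level by 6 h, whereas STING1 was lower at 6 h and higher at 48 h. The type III interferon gene IFNL1 had 2 and 0 counts untreated and 16 and 17 counts at 48 h, a ratio of 13.8 with a 95% counting interval of 3.53 to 119. IFNB1 had 0 counts in each of the 6 GFP libraries, and a count of 0 allows up to 3 counts a library. Of 20 genes of the MHC class I pathway, 13 passed the filter on low counts, and the list is read by these only. Of the 13, 2 rose (15.4%) and 7 fell (53.8%, against 31.8% of all genes). Their median of -0.23 turned to 0.01 under total counts, with 5 rather than 2 rising. HLA-E had the highest log2 fold change of the list, 1.17, and was not called. PSME2, of the proteasome activator, and HLA-B were the members that rose, by 0.93 and 0.64, and the loading factor PDIA3 fell by 0.75 on the log2 scale.

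Cytokines and growth factors fell more often than they rose. Of 27 tested, 8 rose (29.6%) and 17 fell (63.0%), beside 32.4% and 31.8% of all genes, and the median log2 fold change was -0.69. VEGFA, the main angiogenic factor, stood at 622 and 661 CPM untreated, 327 and 327 CPM at 6 h and 212 and 206 CPM at 48 h. LIF, of the interleukin-6 family, went from 72.5 and 70.1 CPM to 19.7 and 21.5 CPM. CXCL8, a neutrophil attractant, went from 55.4 and 54.4 CPM to 33.5 and 34.7 CPM, and IL1B from 15.8 and 17.4 CPM to 9.06 and 8.67 CPM. CCL2, a monocyte attractant, was low throughout, with 35 and 32 counts untreated and 6 and 4 at 48 h. Others went up. IL24, a cytokine of the interleukin-10 family, rose from 10.9 and 11.4 CPM to 75.1 and 76.3 CPM, a log2 fold change of 2.76 ± 0.070 (SE, n = 2 libraries a group, edgeR adjusted p = 6.08e-22). CXCL11, an interferon-induced chemokine, rose from 5 and 15 counts to 125 and 119, and IL6 stood at 54.2 and 48.4 CPM untreated and at 62.5 and 62.8 CPM at 48 h.

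The transcriptional feedback, early response and stress genes are read against the 32.4% of all genes that rose and the 31.8% that fell. Of 17 feedback genes of NF-kB, 7 rose (41.2%) and 8 fell (47.1%), and the median of -0.03 became 0.22 under total counts. NFKBIA, the inhibitor of NF-kB, went from 170 and 173 CPM to 101 and 89.4 CPM, and TRAF1, an adaptor of tumour necrosis factor receptors, from 23.5 and 25.4 CPM to 43.9 and 46.1 CPM. Of 30 immediate early genes, 15 rose (50%) and 13 fell (43.3%), with 10 and 4 past 2-fold, and 8 rather than 13 fell when scaled to total counts. FOSB, an AP-1 subunit, had 14 and 11 counts untreated and 129 and 169 at 48 h. EGR1, a zinc finger factor, went from 21.1 and 20.9 CPM to 86.2 and 86.7 CPM, whereas DUSP6, a phosphatase of ERK, went from 265 and 270 CPM to 80.8 and 82.1 CPM. Both had moved the same way at 6 h, to 42.4 and 35.9 CPM for EGR1 and 173 and 174 CPM for DUSP6. Of 20 genes of the integrated stress response, 6 rose (30%) and 13 fell (65.0%), with a median of -0.55. DDIT4, an inhibitor of mTORC1 that stress usually raises, stood at 603 and 638 CPM untreated, 68.5 and 61.2 CPM at 6 h and 81.3 and 77.0 CPM at 48 h, a 48 h log2 fold change of -2.97 ± 0.048 (SE, n = 2 libraries a group, edgeR adjusted p = 1.17e-25). ATF4, the master factor of the response, went from 441 and 460 CPM to 235 and 232 CPM and CHAC1, a target that degrades glutathione, fell by 1.92 on the log2 scale, while ATF5, a related factor, rose from 29.0 and 26.1 CPM to 103 and 99.4 CPM. Of 20 heat shock and chaperone genes, 13 rose (65.0%), 3 fell (15%) and 4 did not pass. The median was 0.28, or 0.24 with a gene at 0 counts untreated, which could not fall, set at its bound. DNAJB4, a co-chaperone, rose by 1.04, and HSP90B1, the chaperone of the endoplasmic reticulum, fell by 0.73 on the log2 scale.

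**Figure D2:**
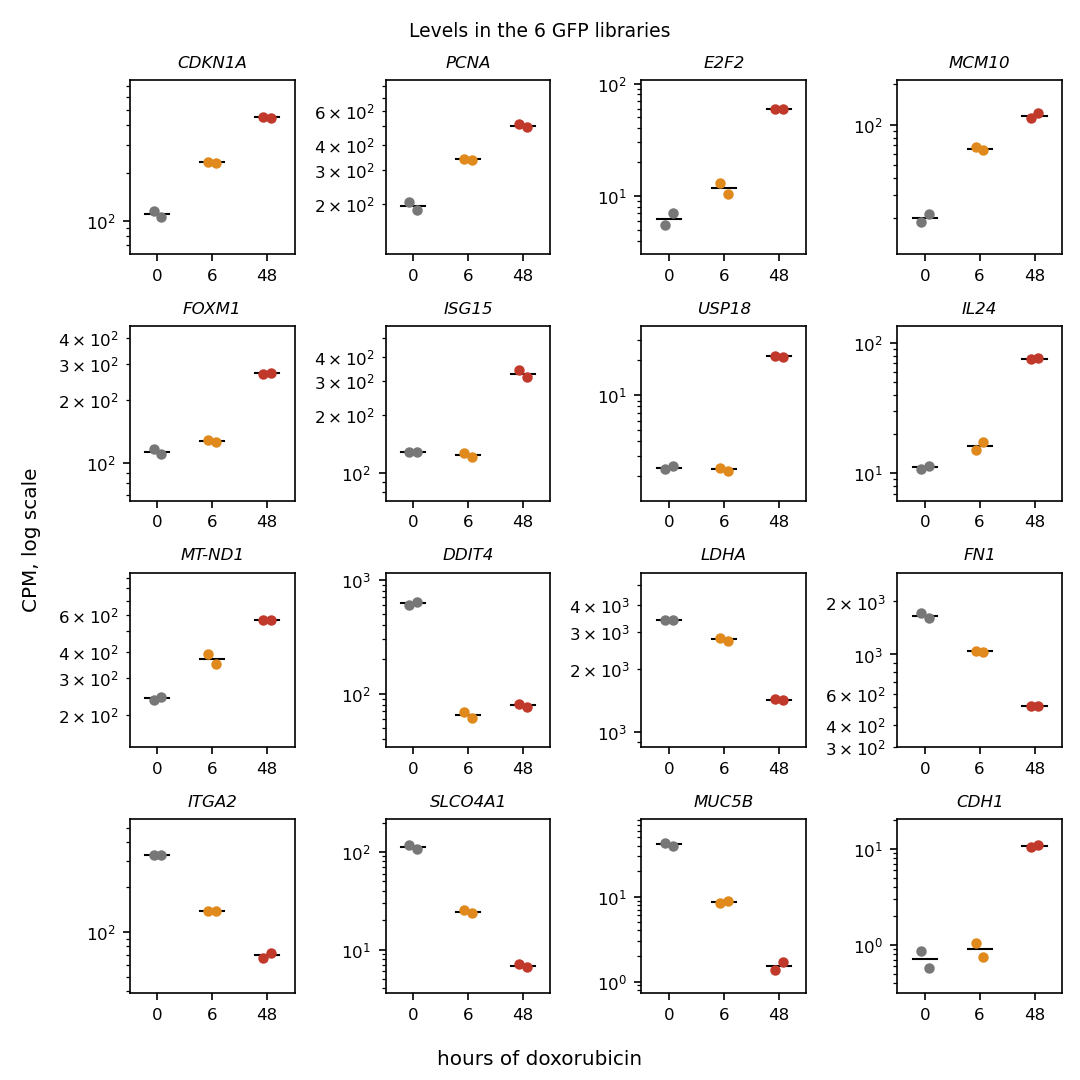
CPM on a log scale for 16 genes in the 6 GFP libraries at 0, 6 and 48 h of doxorubicin, with 1 point per library and a bar for the mean of the 2. CDKN1A was at 114 and 106 CPM untreated and at 447 and 446 CPM at 48 h, and DDIT4 was at 603 and 638 CPM untreated, 68.5 and 61.2 CPM at 6 h and 81.3 and 77.0 CPM at 48 h.

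Hypoxia and glycolysis genes fell together. Of 31 tested, 30 fell and 1 rose, and 18 fell at least 2-fold, which are 96.8% and 58.1% of the list beside 31.8% and 8.29% of all genes. The median log2 fold change was -1.18, and 27 had already fallen at 6 h, when 25.8% of all genes fell and the median of the list was -0.48. HIF1A, the inducible subunit of the hypoxia factor, stood at 626 and 625 CPM untreated, 422 and 426 CPM at 6 h and 276 and 278 CPM at 48 h. The glycolytic enzyme genes PGK1 and LDHA went from 1307 and 1301 CPM to 402 and 393 CPM and from 3415 and 3392 CPM to 1429 and 1419 CPM. Neither gene's libraries overlapped between the groups. CA9, the carbonic anhydrase that is a classical hypoxia marker, went from 6.08 and 7.28 CPM to 1.73 and 1.77 CPM. PDK1, which keeps pyruvate out of mitochondria, fell by 1.74 on the log2 scale, the collagen crosslinking enzyme gene LOX by 1.87, and GAPDH, often used as a reference gene, by 0.64. ADM, which encodes adrenomedullin, was the member that rose, by a log2 fold change of 0.19.

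Matrix and adhesion genes fell as well. Of 39 tested, 29 fell (74.4%, against 31.8% of all genes) and 7 rose (17.9%, against 32.4%), with 20 falls (51.3%, against 8.29%) and 3 rises (7.69%, against 14.1%) past 2-fold, and the median log2 fold change was -1.004. FN1, which encodes fibronectin, stood at 1713 and 1617 CPM untreated, 1048 and 1033 CPM at 6 h and 507 and 513 CPM at 48 h, a 48 h log2 fold change of -1.71 ± 0.043 (SE, n = 2 libraries a group, edgeR adjusted p = 5.02e-22). The collagen receptor gene ITGA2 went from 331 and 328 CPM to 67.0 and 72.1 CPM, and COL13A1, a transmembrane collagen, from 349 and 357 CPM to 76.6 and 83.5 CPM. COL5A2, a fibrillar collagen, rose from 20 and 18 counts to 109 and 126. Of 22 proteases and inhibitors, 6 rose (27.3%) and 11 fell (50%), with a median of -0.30. MMP14, a membrane-bound matrix metalloproteinase, went from 908 and 906 CPM to 314 and 295 CPM, and TIMP3, an inhibitor held in the matrix, from 453 and 457 CPM to 146 and 144 CPM, while MMP3, stromelysin, rose from 12 and 13 counts to 168 and 141.

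Most mesenchymal genes fell, whereas rises and falls of epithelial and keratin genes were equal in number, beside 32.4% and 31.8% of all genes. Of 17 mesenchymal genes, 14 fell (82.4%) and 2 rose (11.8%), with a median of -0.89. VIM, the filament of mesenchymal cells, went from 4494 and 4468 CPM to 2206 and 2106 CPM, ZEB1, a repressor of epithelial genes, from 112 and 115 CPM to 50.5 and 51.8 CPM, and the cadherin gene CDH11 from 38.5 and 40.2 CPM to 9.10 and 8.67 CPM. The members that rose were CDH2, N-cadherin, from 7 and 10 counts to 68 and 68, and the repressor SNAI1, from 36 and 48 counts to 208 and 176. Of 22 epithelial genes, 9 rose and 9 fell (40.9% each), with a median of 0.04. CDH1, E-cadherin, on chromosome 16 at 68737292 to 68835541, had 17 and 11 counts untreated, 20 and 14 at 6 h and 235 and 262 at 48 h, a log2 fold change of 3.88 ± 0.23 (SE, n = 2 libraries a group, edgeR adjusted p = 2.64e-14). The libraries at 0 and 6 h were low and overlapped, and both 48 h libraries stood above them. Of 13 keratin genes, 5 rose and 5 fell (38.5% each). KRT9, a riser described below, had 0 counts in both untreated libraries and could not fall, so these equal numbers are given without a reading. KRT17, a keratin of basal and stressed epithelium, rose from 30 and 16 counts to 609 and 592, KRT86, a hair keratin, fell from 181 and 171 counts to 58 and 81, and KRT18, a keratin of simple epithelium, was at 461 and 463 CPM untreated and 481 and 462 CPM at 48 h. Of 7 stem cell markers, 3 rose (42.9%) and 4 fell (57.1%). ALDH1A1, a retinal dehydrogenase, was the member past 2-fold. It had 0 counts in both untreated libraries, 2 and 0 at 6 h and 26 and 10 at 48 h. That is at least 5.08-fold higher with 3 counts in each untreated library as the floor. ALDH1A1 could not fall from 0 counts, so the numbers of rises and falls in this list are given without a reading. CD44 went from 1238 and 1252 CPM to 686 and 675 CPM, and CD24 from 27.9 and 25.5 CPM to 45.5 and 40.5 CPM.

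Clustered protocadherin genes, which encode adhesion molecules from tandem arrays of variable exons, mostly fell. The 45 genes of the list lie on chromosome 5 between 140786136 and 141512981, and 26 of them passed the filter on low counts. Of these, 23 fell (88.5%, against 31.8% of all genes), 0 rose and 3 did not pass, with 21 past 2-fold and a median log2 fold change of -1.69. PCDHGA10 had 39 and 33 counts untreated, 13 and 11 at 6 h and 1 and 3 at 48 h. The genes are all low, at up to 23.4 CPM untreated, and many share their last exons with neighbours, so counts may be divided between them. With at least 10 counts required in every library, 8 were counted as fallen rather than 23, of fewer genes tested.

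Several housekeeping groups moved in a narrow range. Of 76 cytosolic ribosomal protein genes, 68 fell (89.5%, against 31.8% of all genes) and 4 rose (5.26%, against 32.4%), with 6 falls past 2-fold (7.89%, against 8.29%), and the median was -0.58. Their summed share of counts went from 4.70% and 4.63% untreated to 3.73% and 3.60% at 48 h. Reads of ribosomal protein genes can match processed pseudogenes, so single members are uncertain. Of 13 mRNAs of the mitochondrial genome, 12 rose (92.3%) and 0 fell, with a median of 0.69, and the share of counts on the mitochondrial genome went from 0.893% and 0.947% to 1.66% and 1.70%. MT-ND1, MT-CYB and MT-ND5, which encode subunits of respiratory complexes, were also among the 5 with the highest CPM per kb of exon to rise at least 2-fold. MT-ND1 went from 236 and 244 CPM to 566 and 568 CPM. Among the 5 genes of the highest CPM per kb of exon to fall at least 2-fold, the translation factor gene EEF1A1 went from 10070 and 10360 CPM to 4754 and 4833 CPM. EEF1A1P5, a pseudogene that shares reads with it, the calcium-binding protein gene S100A6, the actin-sequestering TMSB4X and the growth factor binding protein IGFBP4 were the others. Their log2 fold changes were -1.02, -1.16, -1.53 and -1.41.

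Lipid, lysosome and transport genes fell more often than they rose. Of 30 sterol and lipid synthesis genes, 6 rose (20%, against 32.4% of all genes) and 18 fell (60%, against 31.8%), with 4 falls past 2-fold (13.3%, against 8.29%) and a median of -0.34, and 11 rather than 6 rose under total counts. SCD, which makes monounsaturated fatty acids, stood at 2090 and 2214 CPM untreated, 1597 and 1574 CPM at 6 h and 699 and 685 CPM at 48 h. ELOVL6, an elongase, fell by 1.77 on the log2 scale. Of 29 lysosome genes, 5 rose (17.2%) and 20 fell (69.0%), with a median of -0.32, and 8 rather than 5 rose under total counts. The protease gene CTSD went from 558 and 568 CPM to 245 and 231 CPM, while GLA, alpha-galactosidase, rose from 20.7 and 22.9 CPM to 53.4 and 47.9 CPM. Of 11 drug efflux genes, 3 rose (27.3%) and 7 fell (63.6%). ABCC4, an exporter of organic anions, went from 66.6 and 67.9 CPM to 21.4 and 21.0 CPM. ABCB1, the P-glycoprotein gene whose product exports doxorubicin, had 0 counts in both untreated and both 6 h libraries and 11 and 21 counts at 48 h. That is at least 4.42-fold higher with the untreated group set at a floor of 3 counts a library. ABCB1 could not fall from 0 counts, so a rise was the only call open to it. The partners of ZMYND8 in chromatin were measured as a list of 18, of which 8 rose (44.4%) and 7 fell (38.9%), with a median of -0.11 that turned to 0.14 under total counts. EED, of Polycomb repressive complex 2, rose by 1.03, and KDM5B, a histone demethylase, fell by 0.76 on the log2 scale. ZMYND8 itself stood at 209 and 208 CPM untreated, 93.8 and 99.4 CPM at 6 h and 139 and 141 CPM at 48 h, and thus fell by 6 h and was in between at 48 h.

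Histone and germ-line genes were read by their tested members. Of 62 replication-dependent histone genes, whose mRNAs mostly lack poly(A) tails, 22 passed the filter, and of these 14 rose (63.6%, against 32.4% of all genes), 0 fell and 8 did not pass, with a median of 0.99. H2BC11 had 43 and 29 counts untreated and 246 and 283 at 48 h. Of 37 cancer-testis and germ-line genes, 17 passed the filter, and 10 rose and 0 fell. Of these 17, 5 had 0 counts in both untreated libraries and passed through other libraries, so they could not fall and the 2 counts are given without a reading. With at least 10 counts required in every library, 1 was counted as risen, of fewer genes tested. SYCP1, a protein of the synaptonemal complex of meiosis, had 0 counts in both untreated and both 6 h libraries and 47 and 53 counts at 48 h, which is at least 13.9-fold higher. The germ cell helicase gene DDX4 had 0 counts in the same 4 libraries and 34 and 52 at 48 h (at least 11.9-fold), and DAZL, a germ cell RNA-binding protein, had 24 and 51 (at least 10.4-fold). The highest of these levels was 2.23 CPM, so the 3 genes were detected at a low level only. BRDT, the testis BET protein, had 0 counts in the 4 libraries and 22 and 15 at 48 h.

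Genes without a count in untreated cells were then counted across the table. Of 35320 genes with 0 counts in both untreated libraries, 10034 had a count at 48 h, of which 6471 had 1 to 3 counts in the 2 libraries together, whereas 2118 had a count at 6 h. In the other direction, 1325 genes with a count untreated had none at 48 h. The number of genes with at least 1 count was 23280 and 22934 untreated, 22507 and 22587 at 6 h, and 30201 and 30440 at 48 h, at total counts between 19614037 and 21176172. These newly detected genes made up 0.116% and 0.117% of counts at 48 h. Of the 415 silent genes that entered the test, 377 rose, 296 of them protein-coding and 69 long non-coding, and 248 of the 377 also had 0 counts at 6 h. A gene can pass the filter on low counts through its 48 h libraries alone, so this number describes the genes that passed only. Markers of other cell types were checked in the same way. Of 27, 10 passed the filter, and 5 rose (50%, against 32.4% of all genes) and 1 fell (10%, against 31.8%). PTPRC, the leukocyte antigen CD45, had 5 and 14 counts untreated and 76 and 94 at 48 h, and the neuronal splicing factor RBFOX3 had 0 and 1 counts and then 13 and 14. The summed level of the list was 30.82 and 29.96 CPM untreated and 41.3 and 39.0 CPM at 48 h, 12 of the 27 had 0 counts in both untreated libraries, and their part in the other rises was not tested.

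Low genes enter the test mainly through the libraries in which they are high, so the shares by level are a description. Of 4268 genes with a mean below 1 CPM over the inducible libraries, 34.8% rose at least 2-fold and 5.93% fell, whereas among 2496 genes at 100 CPM or more 2.44% rose and 8.81% fell. Of the 2644 genes that rose at least 2-fold, 915 had at most 3 counts in each untreated library. The 100 most abundant genes of each library took 16.2% and 16.3% of its counts untreated and 13.2% and 13.1% at 48 h.

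Falls took a larger share of long genes. Among 14533 genes with a mean of at least 1 CPM, the share that fell at least 2-fold was 5.46% for genes spanning 10 to 30 kb, 13.5% for 100 to 250 kb, 29.3% for 250 to 500 kb and 45.4% for the 174 genes of 500 kb or more. The shares that rose were 8.54%, 5.57%, 5.44% and 9.77% in the same order. The median log2 fold change of the longest class was -0.89 at 48 h and -0.52 at 6 h, against -0.06 and -0.04 for all genes of that level. Genes of 250 kb or more held 3.03% and 3.04% of counts untreated, 2.36% and 2.39% at 6 h, and 1.92% and 1.96% at 48 h. The spans are those of the GENCODE gene models and include introns.

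**Figure D3:**
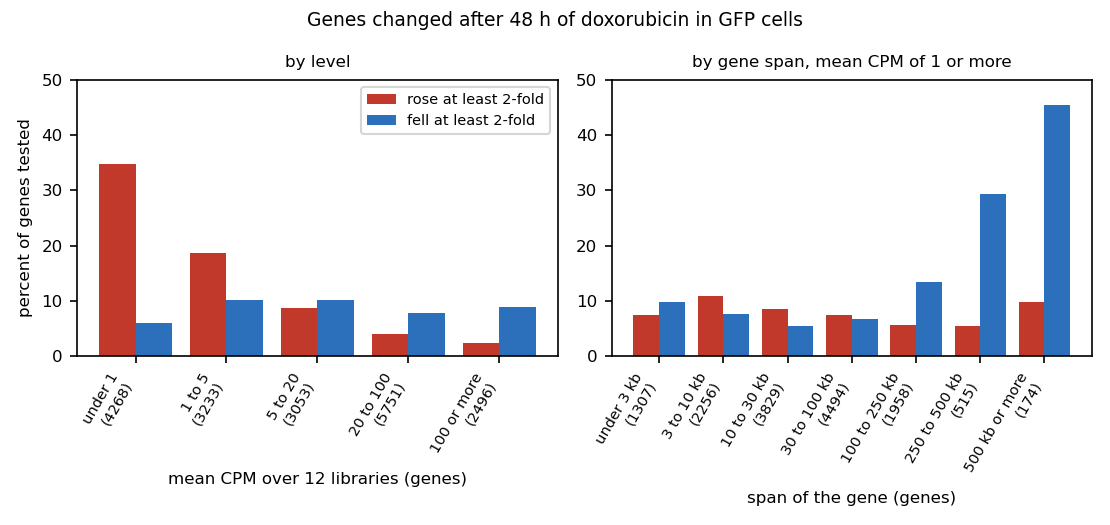
Percent of genes tested that rose (red) or fell (blue) at least 2-fold after 48 h of doxorubicin in GFP cells, by mean level over the 12 inducible libraries (left, CPM) and by the span of the gene for genes of at least 1 CPM (right), with the number of genes in each class in parentheses. Rises make up 34.8% of the genes below 1 CPM, and falls make up 45.4% of the genes of 500 kb or more.

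The largest single rises, ranked by fold among genes with an average log2 CPM of at least 1, were in genes of low level and included BRDT and KRT17, described above. KRT9, a keratin of palm and sole skin, had 0 counts in both untreated libraries, 1 and 0 at 6 h and 41 and 28 at 48 h, which is at least 9.66-fold higher. SMPD3, a neutral sphingomyelinase, had 9 and 3 counts untreated, 36 and 47 at 6 h and 230 and 249 at 48 h. RHBDL3, a rhomboid-like protein, went from 6 and 6 counts to 208 and 210, and MYPN, a protein of the muscle sarcomere, from 10 and 8 to 281 and 269. ACTBL2, an actin-like gene, had 6 and 6 counts and then 170 and 164, and the antisense RNA IGFL2-AS1 had 1 and 3 and then 71 and 68. The rule that named these genes required both 48 h libraries to stand above either untreated library, so this separation is no added support. CBX1P3, a processed pseudogene whose reads may come from its parent, had 2 and 1 counts and then 45 and 48, a ratio of 25.9 with a 95% counting interval of 8.59 to 128. LAMA1, a laminin chain, had 2 and 1 counts, 30 and 34 already at 6 h, and 49 and 43 at 48 h.

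The largest falls included MUC5B, a gel-forming mucin, on chromosome 11 at 1223066 to 1262172. It had 851 and 748 counts untreated, 160 and 166 at 6 h and 31 and 40 at 48 h, a log2 fold change of -4.75 ± 0.15 (SE, n = 2 libraries a group, edgeR adjusted p = 5.72e-20). SLCO4A1, an organic anion transporter, went from 117 and 107 CPM to 7.06 and 6.56 CPM, and SLCO4A1-AS1, which lies within it on the other strand of chromosome 20, from 67.9 and 73.6 CPM to 5.99 and 6.44 CPM. Counting was strand-specific, so the 2 transcripts were told apart. The transpeptidase gene GGT5 fell by 3.85 on the log2 scale, EFNB3, an ephrin, by 3.77, the thrombin receptor gene F2RL3 by 3.72, and the superoxide-producing oxidase gene NOX5 by 3.47. PARN, a poly(A) ribonuclease, went from 93 and 123 counts to 5 and 2, NAPRT, an enzyme of NAD synthesis, from 110 and 61 to 3 and 4, and PTPRK, a receptor phosphatase, from 130 and 134 to 6 and 8. In these last 3 genes replicates elsewhere in the study disagreed widely, with 86 and 6 counts of PARN in ZMYND8 cells at 48 h, and with 51 and 4 counts of NAPRT and 80 and 18 of PTPRK in untreated ZMYND8 cells, so their values are uncertain.

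The 6 h libraries show which changes were present early. They share their untreated controls with the 48 h comparison, so values are given side by side and no likeness was computed. At 6 h, 9014 genes differed from untreated (47.9%), with 576 rises (3.06%) and 1148 falls (6.11%) past 2-fold, and between 6 and 48 h 11701 genes differed (62.2%), with 2945 rises (15.7%) and 835 falls (4.44%) past 2-fold. The lists differed in their medians at 6 h and 48 h, of which 9 are given. DNA replication stood at 0.55 and 1.23, hypoxia and glycolysis at -0.48 and -1.18, and protocadherins at -0.75 and -1.69, with part of the change at 6 h. Interferon-stimulated genes stood at -0.26 and 0.96 and mitotic genes at -0.17 and 0.33, with opposite signs at the 2 times. The integrated stress response stood at -0.45 and -0.55, with most of its difference present at 6 h. Matrix genes stood at -0.17 and -1.004 and ribosomal protein genes at -0.04 and -0.58, with most of theirs after 6 h, and heat shock genes were higher at 6 h (0.47) than at 48 h (0.28). Of the 48 interferon genes tested, 5 rose (22.1% of all genes did) and 28 fell (25.8%) at 6 h.

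The cells with inducible FLAG-ZMYND8 give the same treatment in a second line with its own controls. ZMYND8 had 16502 and 21177 counts in the untreated libraries of that line, against 4125 and 3944 in untreated GFP cells, as its labels say. At 48 h, 11718 genes differed in these cells (62.3%), with 2563 rises (13.6%) and 1222 falls (6.5%) past 2-fold. Of the 2644 genes that rose at least 2-fold in GFP cells, 1696 did so in ZMYND8 cells, which are 64.1% of the GFP list and 66.2% of the ZMYND8 list. Of the 1559 that fell, 742 did so in ZMYND8 cells, which are 47.6% and 60.7% of the lists. Over the GFP risers the median log2 fold change was 2.05 in GFP cells, which chose them, and 1.66 in ZMYND8 cells, and over the GFP fallers the medians were -1.35 and -1.01. The 2 lines also differed without the drug, where 10954 genes differed (58.3%), 3345 of them at least 2-fold (17.8%), and the part of these starting levels in the difference between the responses was not tested.

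The difference of the 48 h effects was tested by the interaction term of the same edgeR fit, and 5371 genes passed (28.6%), with the effect higher in ZMYND8 cells in 2397 (12.7%) and lower in 2974 (15.8%). DNA replication genes rose in both lines, but the effect was lower in ZMYND8 cells in 53 of 60 and higher in 0, with medians of 1.23 in GFP cells and 0.61 in ZMYND8 cells. The effect on mitotic genes was lower in 42 of 47, with medians of 0.33 and -0.21, and that on repair genes was lower in 26 of 42. MCM10 rose by 2.54 in GFP cells and by 0.96 in ZMYND8 cells, and CDKN1A by 2.02 and 0.95. These medians are of opposite sign for mitosis only among the 3 groups of the cell cycle. Interferon genes were divided, with the effect higher in 11 and lower in 23 of 48 and medians of 0.96 and 0.77. IFI44L rose by 4.27 and 1.70 from 11 and 8 counts in untreated GFP cells and from 63 and 75 counts in untreated ZMYND8 cells.

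Cytokine genes differed in the other direction. The effect was higher in ZMYND8 cells in 18 of 27 and lower in 3, and the medians were -0.69 in GFP cells and 0.49 in ZMYND8 cells. CXCL8 had 1093 and 1031 counts in untreated and 754 and 824 in treated GFP cells, against 32 and 78 counts in untreated and 119 and 130 in treated ZMYND8 cells. Its level in treated ZMYND8 cells was thus below that of either GFP group in counts, although the change was upward. IL6 rose in both, from 1249 and 1734 counts to 5849 and 5403 in ZMYND8 cells. Feedback genes of NF-kB were higher in 11 of 17 and lower in 1. The effect on ribosomal protein genes was higher in 73 of 76, with medians of -0.58 and -0.02, while that on heat shock genes was lower in 18 of 20 (medians 0.28 and -0.57) and that on sterol and lipid genes lower in 22 of 30 (medians -0.34 and -0.75). Hypoxia and glycolysis genes fell in both, with medians of -1.18 and -1.38, and the matrix list did so with medians of -1.004 and -0.98.

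Control cells of the transient experiment gave another setting, with 5.13% of its 15697 genes tested passing, 468 higher (2.98%) and 337 lower (2.15%). Its spread between replicates was larger, with a biological coefficient of variation of 0.191 against 0.037 in the inducible libraries, and 1 of its 2 doxorubicin libraries held 24713822 counts against 5729294 in the other. The 805 calls became 117 without the deeper doxorubicin library, 500 without the shallower one and 403 without control replicate 1. In this setting samples with the same replicate number deviated together (correlations of 0.208 to 0.404 over 3 pairs of groups), and a fit that takes out the difference between the numbers passed 2410 genes (15.4%), 1184 higher (7.54%) and 1226 lower (7.81%). Among 15082 genes tested in both settings, 265 rose at least 2-fold in both (2.51% of transient genes tested rose so), which are 22.4% of the GFP list and 68.5% of the transient list, and 164 fell (1.57% of transient genes tested fell so), which are 12.5% and 68.0%. In that blocked fit 4.18% of transient genes rose and 2.85% fell at least 2-fold, and 391 rose and 279 fell so in both settings. The medians in transient cells were 1.29 for DNA replication, 0.78 for repair, 0.65 for mitosis, 0.72 for interferon genes, -0.86 for hypoxia and glycolysis and -1.31 for protocadherins. These 6 medians had the sign of those in GFP cells. Other lists differed in sign, with medians in transient and GFP cells of 0.10 and -0.69 for cytokines, and -0.11 and 0.28 for heat shock. Those of the MHC class I pathway were 0.19 and -0.23, of NF-kB feedback 0.30 and -0.03, and of keratins -0.65 and 0.03. Cyclins and kinase inhibitors stood at 0.28 and -0.28, topoisomerases at 0.09 and -0.07, and partners of ZMYND8 at 0.03 and -0.11. All remaining lists except the mitochondrial genome kept their sign. The median of the mitochondrial genome list was -0.28 there, opposite to 0.69 in GFP cells, and 0 of its 13 genes passed the test in transient cells, with or without the block. CDKN1A rose there by 2.09 (edgeR adjusted p = 0.00461), or by 2.12 with the block (edgeR adjusted p = 0.00011).

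**Figure D4:**
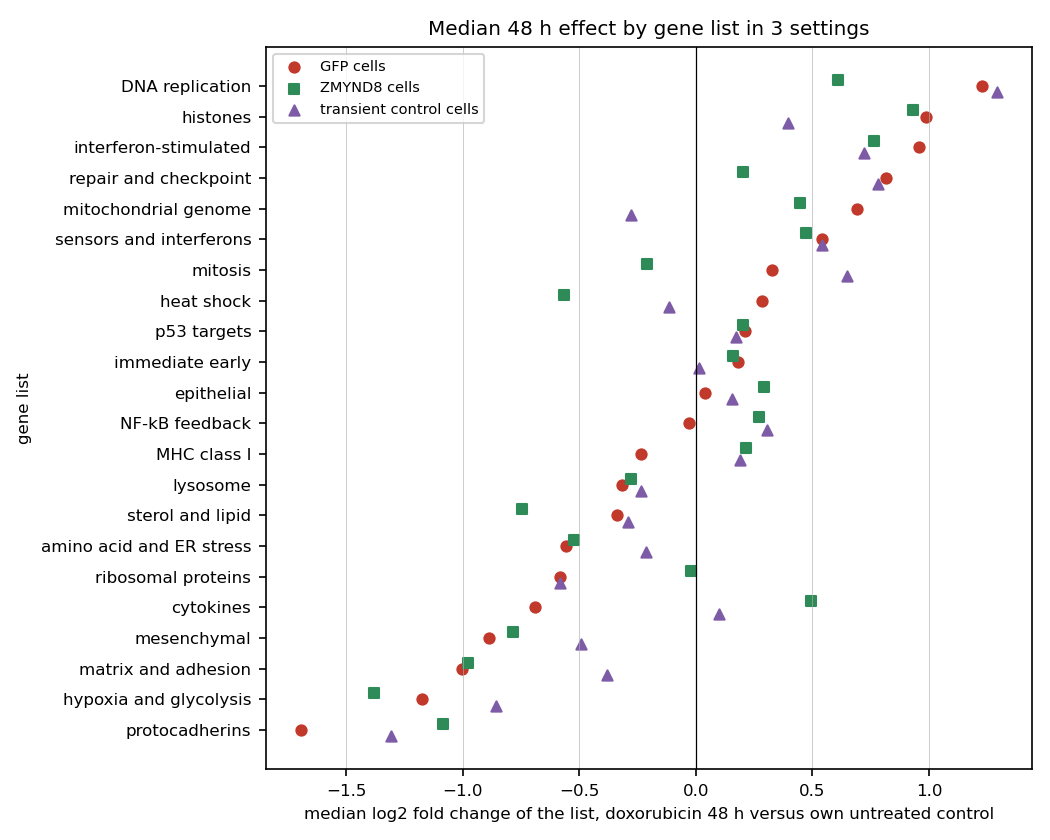
Median log2 fold change of chosen gene lists, each with at least 10 genes tested in transient cells, doxorubicin 48 h against the untreated control of the same setting. Circles are GFP cells, squares ZMYND8 cells and triangles transient control cells, with n = 2 libraries a group and no error bars on the medians. The lists of proteases, keratins, drug efflux genes, death-promoting BCL2 members and ZMYND8 partners also held at least 10 such genes and are not drawn. DNA replication stands at 1.23, 0.61 and 1.29, and cytokines at -0.69, 0.49 and 0.10.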

How the data were processed

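Poly(A) RNA was sequenced from 18 libraries, 12 of the inducible and 6 of the transient system. The authors deposited unnormalized counts, 1 for each read pair assigned to the exons of a gene. Per the file headers these come from featureCounts 1.6.4 in its reverse-strand, paired-end mode, with gene models of GENCODE release 31. The study's methods name TopHat for alignment, whereas the submitters' processing notes name HISAT2, Trim Galore and DESeq2, so the aligner is uncertain. Replicates were not pooled. Of 60603 genes in the table, 42000 have a symbol.

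Groups were taken from the sample labels. The 12 inducible libraries were fitted together with edgeR 4.0.16 (R 4.3.3), with TMM factors, filterByExpr, 1 mean per group and the quasi-likelihood test, and p-values were adjusted over all 18801 genes by Benjamini and Hochberg. The transient table was fitted separately. CPM values use the TMM-scaled library sizes. The median of all log2 fold changes depends on this scaling, and reads that match several genes equally were not counted, which lowers the counts of close paralogs. The standard error of a log2 fold change was taken from its F statistic. Fold bounds set a group at 0 to a floor of 3 counts in each library, and all intervals and floors are 95% and cover counting error only. A floor of 3 counts was worth 0.122 to 0.1675 CPM in the inducible libraries, which held 18300628 to 23724398 counts.

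Data were simulated from these libraries for the GFP 48 h comparison over 18801 genes. The test recovered 66.4% of 307 genes changed 2-fold and 88.1% of 293 changed 4-fold, and 7.04% of its calls were false. These percentages hold for that setting, in which far fewer genes were changed than the 12077 called at 48 h in GFP cells. Recovery and false calls with as many changed genes as that were not tested. Inducible samples with the same replicate number did not deviate together, with 15 correlations from -0.046 to 0.022 and 0 above 0.1, so the numbers were not used as pairs. The 3 correlations among transient groups were 0.208, 0.335 and 0.404, so transient numbers were taken as pairs from the data, without a label that says what they share, and blocked values stand beside those of the fit without a block. The 33 gene lists and the genes described were chosen with earlier results of these data known. Genes were named as the 10 largest rises and falls with an average log2 CPM of at least 1 and no overlap between libraries, the 5 rises and 5 falls with the highest CPM per kb of exon, and up to 4 members of each list with the largest change, and other members of the lists were added for their known role after their values were seen. Remarks that libraries did not overlap concern genes chosen in these ways, and the share of such genes over the whole table is not given. Of the list names, 3 matched no gene (1 feedback gene of NF-kB and 2 histone genes). Promoters were taken from RefSeq. Alternatives were another scaling, another filter, DESeq2 1.42.0, fewer libraries in the fit, a replicate block and the omission of single libraries. The libraries labelled as transient ZMYND8 plus doxorubicin entered the transient fit and are not described, and those of ZMYND8 cells at 6 h entered the inducible fit.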

Additional observations from a re-analysis of the deposited data

Results flagged for a closer look

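The effect of 48 h of doxorubicin differed between ZMYND8 and GFP cells in 5371 genes by the interaction term of the edgeR fit (adjusted p of at most 0.05), and among 141 genes named above and tested the difference passed the test and was at least 1 on the log2 scale in 39. Each value below is the log2 fold change in ZMYND8 cells minus that in GFP cells. The lines differed at least 2-fold without the drug in 3345 genes (17.8%), and the part of these starting levels was not tested.

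The effect was lower in ZMYND8 cells for several genes of replication, repair and the p53 response, by -1.58 for MCM10, -1.08 for FANCI, -1.08 for UHRF1 and -1.07 for CDKN1A. Interferon genes were also among them, with -2.57 for IFI44L, -2.30 for RSAD2, -1.18 for USP18 and -1.18 for OAS1. Early response and chaperone genes were at -1.44 for FOSB, -1.20 for EGR1 and -1.02 for DNAJB4. The cadherin gene CDH1 was at -1.57 and the collagen gene COL5A2 at -1.68. Both CA9 at -1.37 and SCD at -1.56 fell in each line, and fell further in ZMYND8 cells.

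Among the largest rises of GFP cells the difference was -7.45 for BRDT, -3.88 for LAMA1, -2.30 for KRT17, -2.19 for IGFL2-AS1, -2.06 for MYPN, -1.41 for ACTBL2 and -1.35 for SMPD3. BRDT had 522 and 625 counts in untreated ZMYND8 cells and 0 counts in untreated GFP cells, so its fitted value depends on the prior count and is no bound.

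The effect was higher in ZMYND8 cells for the cytokine genes CCL2 (5.96), IL1B (2.23), CXCL8 (1.63) and IL6 (1.39), and for NFKBIA (1.04). CCL2 had 0 counts in both untreated and 1 count in each 48 h library of ZMYND8 cells, so its value rests on very few counts. The phosphatase gene DUSP6 was at 1.72, BMF at 1.41, CHAC1 at 1.47, LOX at 1.06, CDH11 at 1.19 and KRT86 at 1.57. Of the largest falls in GFP cells, MUC5B was at 2.19, SLCO4A1-AS1 at 1.23 and EFNB3 at 3.06. PARN (8.57), PTPRK (4.69) and NAPRT (3.44) had large differences, and these are the 3 genes whose replicates disagreed widely in ZMYND8 cells.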

How the results depend on the processing

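For 153 genes named by rule, 11 alternatives gave 1634 values, of which 1593 kept their direction and their side of the threshold, 41 kept the direction and lost the call, and 0 reversed. The 41 belonged to genes for which no value is given above. With the study's threshold (unadjusted p of at most 0.05 and a log2 change of at least 1.5) the counts were 2491 for GFP cells at 48 h, 580 of them lower, 2466 for 48 h against 6 h, 2336 for ZMYND8 cells and 695 for the difference between lines, fewer because the fold required is larger. Total-count scaling gave 889 genes lower by 2-fold, and the filter of 10 counts in every library gave 983 higher and 1019 lower, of fewer genes tested. Leaving out single libraries gave 10942 to 11084 genes for GFP cells at 48 h (2555 to 2637 higher and 1510 to 1567 lower by 2-fold), 10688 to 10726 for 48 h against 6 h, 10297 to 10774 for ZMYND8 cells, 4451 to 4850 for the difference and 117 to 750 for transient cells. In a fit that leaves a group with 1 library, that library is assumed to vary like the others. With the replicate block, which the check of the numbers gave no ground for among inducible libraries, the counts were 11970 for GFP cells at 48 h (2603 higher and 1546 lower by 2-fold), 11604, 5259 and 11598 for 48 h against 6 h, the difference and ZMYND8 cells, and for transient cells, whose same-numbered samples deviated together, 2410, and the cause of that change was not tested. Of 726 counts over lists 673 stayed within 1.5 times, and of 374 medians 241 moved by less than the spread between pairs of libraries. Genes near 0 counts are limited by depth, and the limits of those values are given beside them.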
